A study of Mus musculus with 15 samples.

Results

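Chemokines are small secreted proteins that guide white blood cells along a gradient, and their receptors are G protein-coupled receptors on the cells that follow it. CC and CXC chemokines are named for the spacing of their first cysteines. Inflammatory members are induced in injured tissue and draw monocytes, T cells or neutrophils, homeostatic members place cells in lymphoid organs, and atypical receptors bind chemokines without G protein signalling. In the injured kidney, tubule cells and infiltrating macrophages are known sources of these ligands.

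The chemokine and chemokine receptor genes were taken from the gene table of 15 mouse kidneys by symbol, as every protein-coding Ccl, Cxcl, Ccr, Cxcr, Xcl, Xcr and Ackr gene followed by a number, with Cx3cl1 and Cx3cr1. The rule found 67 of 54532 genes, 44 for ligands and 23 for receptors. Of these, 60 lay on the main chromosomes and 7 on unplaced scaffolds, where second copies of Ccl19, Ccl21 and Ccl27 genes stand, so that the 67 genes had 62 distinct symbols. Cxcl11 did not enter because its gene is annotated as a polymorphic pseudogene in this strain.

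The kidneys came from male C57BL/6 mice that were 8 weeks old at the start, 5 in each of 3 groups. The C group ate a normal diet. The M group ate chow with 0.25% adenine, which forms crystals in the tubules, for 4 weeks and was then returned to standard chow until the end of week 8. The AA group had the same adenine course together with asiatic acid, a triterpenoid of Centella asiatica, at 30 mg/kg by daily gavage through both periods. The C and M groups received the vehicle, DMSO in saline. By treatment, M thus differed from C in adenine and AA differed from M in asiatic acid. The libraries of the groups also differed in depth and content, as given below. The values were FPKM, read numbers per gene divided by gene length and by a scale for each library. They were fitted as log2(FPKM + 1), and a gene was called at an adjusted p of at most 0.05 (limma, Benjamini-Hochberg over all genes tested) and a log2 fold change of 1 or more, up or down. Fold changes and standard errors are on that scale, which understates the change of genes near 0.

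The libraries differed in depth and content. Reads outside the mitochondrial genes ranged from 2077644 to 13571837 per library, and mitochondrial genes held 53.0 to 62.5% of the reads recovered over all genes in C, 64.0 to 86.8% in M and 69.2 to 87.2% in AA kidneys. The scale behind FPKM was not the sum of these reads, which came to 43.5 to 193% of it. M mice 1 to 3 had 10068 to 12222 genes above 0, against 23040 and 25460 in M mice 4 and 5 and 18695 to 25460 over all libraries but those 3. Chemokine and receptor genes above 0 numbered 24, 26 and 30 in M mice 1 to 3, 43 and 50 in M mice 4 and 5, 30 to 48 in C kidneys and 29 to 35 in AA kidneys. A count of 3 reads on a gene of 1 kilobase, the limit that a count of 0 allows, equalled 0.0453 FPKM in C mouse 3 and 0.333 in AA mouse 2, the lowest and highest of the 15 libraries, so a 0 in M mice 1 to 3 or in the AA group says less than a 0 in the C group. None of the 7 proximal tubule and 5 thick limb and collecting duct markers was at 0 in all libraries of any group. The same held for the macrophage and fibroblast markers, so this does not tell tissues apart. Proximal tubule markers summed to 120 to 1109 FPKM in C, 7.75 to 33.9 in M and 17.2 to 30.4 in AA kidneys. Those of thick limb and collecting duct summed to 103 to 502, 10.9 to 86.2 and 35.3 to 70.7 FPKM.

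The promoters of 6 genes that were called in at least 1 comparison are shown first, to set ligands and receptors of different families side by side. RefSeq gave promoters (250 bases before to 50 after the start, on GRCm38.p6) for 15 of the 22 genes chosen for description, and not for Ccl2, Ccl5, Ccl7 and Cxcl5. Ccl8 (chr11:82114935-82115234, plus strand) lies in the monocyte-attracting group, Ccl6 (chr11:83593038-83593337, minus strand) and Ccl9 (chr11:83578587-83578886, minus strand) are neighbours, and Cxcl10 (chr5:92348840-92349139, minus strand) is an interferon-induced ligand. Cxcr4 (chr1:128592250-128592549, minus strand) and Ccr9 (chr9:123766961-123767260, plus strand) are receptors. Capitals mark matches on either strand to an NF-kB motif, GGGNNTTNCC, or to an interferon response motif, TTTCNNTTTC.
Ccl8: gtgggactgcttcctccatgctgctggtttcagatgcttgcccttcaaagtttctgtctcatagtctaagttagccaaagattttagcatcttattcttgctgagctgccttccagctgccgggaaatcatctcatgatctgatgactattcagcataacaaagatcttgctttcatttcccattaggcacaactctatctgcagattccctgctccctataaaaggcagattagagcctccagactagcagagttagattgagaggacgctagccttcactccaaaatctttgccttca
Ccl6: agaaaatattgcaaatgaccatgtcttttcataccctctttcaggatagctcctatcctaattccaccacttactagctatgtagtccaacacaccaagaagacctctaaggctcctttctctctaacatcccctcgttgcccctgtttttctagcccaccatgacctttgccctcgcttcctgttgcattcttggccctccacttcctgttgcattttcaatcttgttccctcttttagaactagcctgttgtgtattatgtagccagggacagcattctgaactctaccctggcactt
Ccl9: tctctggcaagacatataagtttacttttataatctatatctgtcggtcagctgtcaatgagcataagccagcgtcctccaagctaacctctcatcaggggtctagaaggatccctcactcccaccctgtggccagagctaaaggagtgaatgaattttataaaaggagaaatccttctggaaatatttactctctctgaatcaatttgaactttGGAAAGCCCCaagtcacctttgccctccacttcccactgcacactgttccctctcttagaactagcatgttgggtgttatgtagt
Cxcl10: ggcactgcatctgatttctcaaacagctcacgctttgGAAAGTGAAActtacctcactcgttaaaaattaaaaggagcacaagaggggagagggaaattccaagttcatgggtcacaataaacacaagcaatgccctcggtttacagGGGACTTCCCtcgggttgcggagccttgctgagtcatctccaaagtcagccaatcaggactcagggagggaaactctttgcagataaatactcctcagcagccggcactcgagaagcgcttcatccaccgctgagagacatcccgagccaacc
Cxcr4: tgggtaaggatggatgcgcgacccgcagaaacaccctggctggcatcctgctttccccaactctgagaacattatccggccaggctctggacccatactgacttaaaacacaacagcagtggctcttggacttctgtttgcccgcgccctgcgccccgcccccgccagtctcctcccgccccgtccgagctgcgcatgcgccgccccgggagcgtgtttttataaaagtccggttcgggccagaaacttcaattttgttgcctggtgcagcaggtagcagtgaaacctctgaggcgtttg
Ccr9: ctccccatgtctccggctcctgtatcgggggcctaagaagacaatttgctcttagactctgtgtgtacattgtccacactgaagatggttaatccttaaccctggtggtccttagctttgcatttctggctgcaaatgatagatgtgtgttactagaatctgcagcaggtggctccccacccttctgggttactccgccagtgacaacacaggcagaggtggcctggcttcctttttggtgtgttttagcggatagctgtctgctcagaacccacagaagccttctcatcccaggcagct
The NF-kB motif was found in 4.79% of 32851 promoters of this length and in 10 of the 53 that belong to chemokine or receptor genes, among them Ccl9 at position −35, Cxcl1, Cxcl2, Cxcl9, Cxcl10 and Ccl20. The interferon response motif was found in 3.44% of all promoters and in 3 of the 53, Cxcl10, Cxcl14 and Ccl19, and the motifs do not overlap in the sequences shown. Neither set of letters occurs in the windows of Ccl8, Ccl6, Cxcr4 and Ccr9. A match is a description of the sequence and was not related to binding here.

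By mean FPKM over the 15 kidneys the most abundant members were Cx3cl1, Cxcl12 and Cxcl14. This order did not hold in every kidney: in M mouse 2 Ccl7 and Ccl8, at 48.1 and 47.0 FPKM, stood above all of them. Cx3cl1, the membrane-bound chemokine fractalkine, reached 13.0 to 36.9 FPKM in C kidneys, 5.65 to 77.8 in M kidneys and 45.6 to 87.5 in AA kidneys. Cxcl12, the homeostatic ligand of Cxcr4, reached 11.6 to 34.8, 6.71 to 86.8 and 34.9 to 66.4 FPKM in the same order. Cxcl14, a CXC chemokine of epithelia, reached 6.68 to 46.2, 5.97 to 77.6 and 22.2 to 83.9 FPKM. These genes had their lowest M values in mice 2 and 5, and neither Cxcl12 nor Cxcl14 was called in any comparison. The next ranks were held by Cxcl16, Ccl8, Ccl7, Ccl2 and Ccl6, all described below. At the other end, 7 genes had no read in any library: Cxcr1, Ccl26, Cxcl17, Ccl21b and 3 scaffold copies. For Cxcr1 the 3-read limit was 0.0303 to 0.223 FPKM over the libraries.

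**Figure D1:**
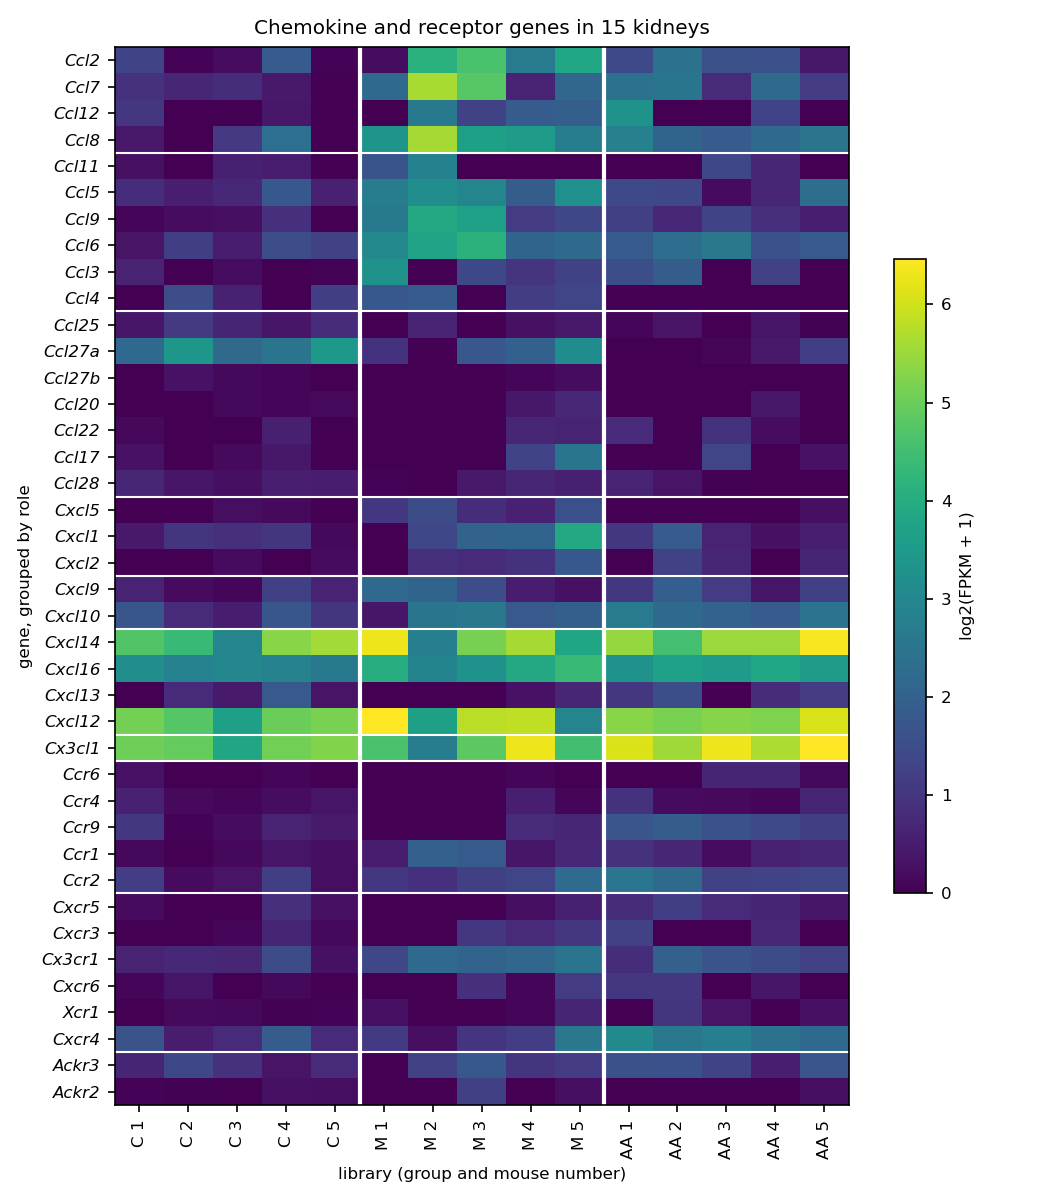
Heat map of log2(FPKM + 1) for 40 of the 41 genes tested in any comparison (rows, grouped by role with white lines between groups) in the 15 libraries (columns, group and mouse number). Cx3cl1, Cxcl12 and Cxcl14 are bright in nearly every column, and the CC ligands in the top rows are brightest in the M columns.

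The first question was which ligands and receptors differed between adenine-fed and control kidneys. In M vs. C, 39 of the 67 genes passed the filter (above 0 in 5 or more of the 10 libraries) and were tested. Called genes were Ccl8, Ccl6, Ccl5 and Cxcl5, all higher in the M group, and no member was called lower. Over all 21153 genes tested, 0.269% were called higher and 1.11% lower, and 16.5% had an unadjusted p under 0.05, against 15 of the 39. The 39 are not a fair sample of the 67, since a gene silent in the C group passes the filter only through the M libraries. Their median log2 fold change was 0.58, beside −0.12 over all genes tested. In 7 of the 39 no M library overlapped any C library, among them Ccl8, Ccl6, Ccl5, Ccl9, Cxcl5 and Ccr1, against 4.72% of all genes. Without C mouse 2, C mouse 5, M mouse 2 or M mouse 3, no member was called, without M mouse 1 only 1 was, and without C mouse 1, 3 or 4 2 were. Over all genes these fits called, in the same order, 76, 1, 38 and 18, then 85, then 216, 188 and 130, against 291 with all libraries. Of 2 fits chosen after seeing the data, the one with M mice 4 and 5 called 0 members and 14 of all genes. The one with M mice 1 to 3 called 10 members and 3094 of all genes. The members' median log2 fold change was 0.59 and 0.45 in these 2 fits.

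The monocyte-attracting ligands, the MCP group, comprised Ccl2, Ccl7, Ccl8 and Ccl12, and 1 of these 4 was called. They lie within 270.1 kilobases of chromosome 11 (82035571 to 82305690, GRCm38), together with Ccl11 and Ccl1. Ccl8, or MCP-2, was at 0.366 and 1.12 FPKM in C mice 1 and 3, at 4.16 in mouse 4 and at 0 in mice 2 and 5. In M mice 2, 3, 4, 1 and 5 it was at 47.0, 11.8, 11.0, 9.11 and 5.52 FPKM, so that the lowest M kidney stood above the highest C kidney. The log2 fold change was 3.00 ± 0.56 (SE, adjusted p = 0.0266). It rested on 0 to 72 reads per C library and 54 to 251 per M library, and was not called without C mouse 2 or 5 or M mouse 1, 2 or 3.

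Ccl2, or MCP-1, was at 1.5, 0.0437, 0.159, 2.6 and 0.0525 FPKM in C mice 1 to 5 and at 0.151, 16.5, 23.4, 5.30 and 13.6 in M mice 1 to 5. The groups overlapped only through M mouse 1, which had 2 reads, and the difference of 2.39 ± 0.72 did not pass (adjusted p = 0.129). Without that library Ccl2 was called in M vs. C. Ccl7, or MCP-3, was at 0 to 0.894 FPKM in C kidneys and at 3.66, 48.1, 26.8, 0.553 and 3.40 in M mice 1 to 5. Here M mouse 4 lay among the controls, and the fold change of 2.50 ± 0.77 did not pass (adjusted p = 0.136). Ccl12, or MCP-5, was at 1.04, 0, 0, 0.330 and 0 FPKM in C mice 1 to 5 and at 0, 5.17, 1.37, 2.67 and 2.86 in M mice 1 to 5. Its fold change was 1.25 ± 0.44 (adjusted p = 0.183), and M mouse 1 again lay within the C range. Thus M mice 2 and 3 held the highest values of Ccl2 and Ccl7, while different M kidneys were low for each gene.

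Of the 8 other inflammatory CC ligands, 6 were tested and 2 called. Ccl5 (RANTES), a T cell and macrophage attractant that binds Ccr1, was at 0.811, 0.467, 0.674, 2.46 and 0.498 FPKM in C mice 1 to 5. In M mice 1 to 5 it was at 5.57, 7.97, 6.75, 2.77 and 8.48, all above the highest control. The log2 fold change was 1.89 ± 0.34 (adjusted p = 0.0233), on 16 to 80 reads per C library and 62 to 254 per M library, and it was lost without the same libraries as Ccl8. Ccl6, a macrophage-derived CC ligand found in rodents, was at 0.278, 1.32, 0.436, 1.91 and 1.40 FPKM in C mice 1 to 5 and at 7.30, 12.3, 16.9, 3.23 and 3.71 in M mice 1 to 5. The groups did not overlap, and the fold change was 2.07 ± 0.43 (adjusted p = 0.0364), called only without M mouse 4 or 5 when a library was left out.

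Ccl9, the neighbour of Ccl6 and another ligand of Ccr1, was at 0.0818, 0.163, 0.198, 0.873 and 0 FPKM in C mice 1 to 5. It was at 5.15, 13.9 and 12.0 in M mice 1 to 3 and at 1.18 and 1.60 in M mice 4 and 5. All M kidneys were above all C kidneys, but the fold change of 2.24 ± 0.52 fell just outside the threshold (adjusted p = 0.0540). Ccl3 (MIP-1α), which also binds Ccr1, was at 0.569, 0, 0.157, 0 and 0.0390 FPKM in C mice 1 to 5 and at 9.0, 0, 1.63, 0.979 and 1.42 in M mice 1 to 5. Its groups overlapped through M mouse 2, and the difference of 1.21 ± 0.48 did not pass (adjusted p = 0.233). The neighbours Ccl5, Ccl9, Ccl6, Ccl3 and Ccl4 lie within 138.9 kilobases of chromosome 11 (83525778 to 83664683), and their M vs. C fold changes ranged from 0.56 for Ccl4 to 2.24 for Ccl9.

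The neutrophil-attracting CXC ligands of Cxcr2 were less abundant. Cxcl5 (LIX) was at 0, 0, 0.178, 0.127 and 0 FPKM in C mice 1 to 5 and at 1.06, 1.85, 0.790, 0.512 and 1.99 in M mice 1 to 5. The lowest M value exceeded the highest C value, and the fold change was 1.03 ± 0.22 (adjusted p = 0.0415), on 0 to 22 reads per C library and 20 to 116 per M library. With a library left out it was called only without M mouse 4. Cxcl2 (MIP-2) was at 0.146 and 0.144 FPKM in C mice 3 and 5 and at 0 in the other three. It was at 0, 0.833, 0.712, 0.923 and 2.42 in M mice 1 to 5, a difference of 0.80 ± 0.26 that did not pass (adjusted p = 0.159). Cxcl1 differed by 1.19 ± 0.56 (adjusted p = 0.310), with 13.9 FPKM in M mouse 5 and 0 in M mouse 1. The receptors of these ligands were almost absent from the table: Cxcr2 was above 0 in 2 of 15 libraries and Cxcr1 in none.

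**Figure D2:**
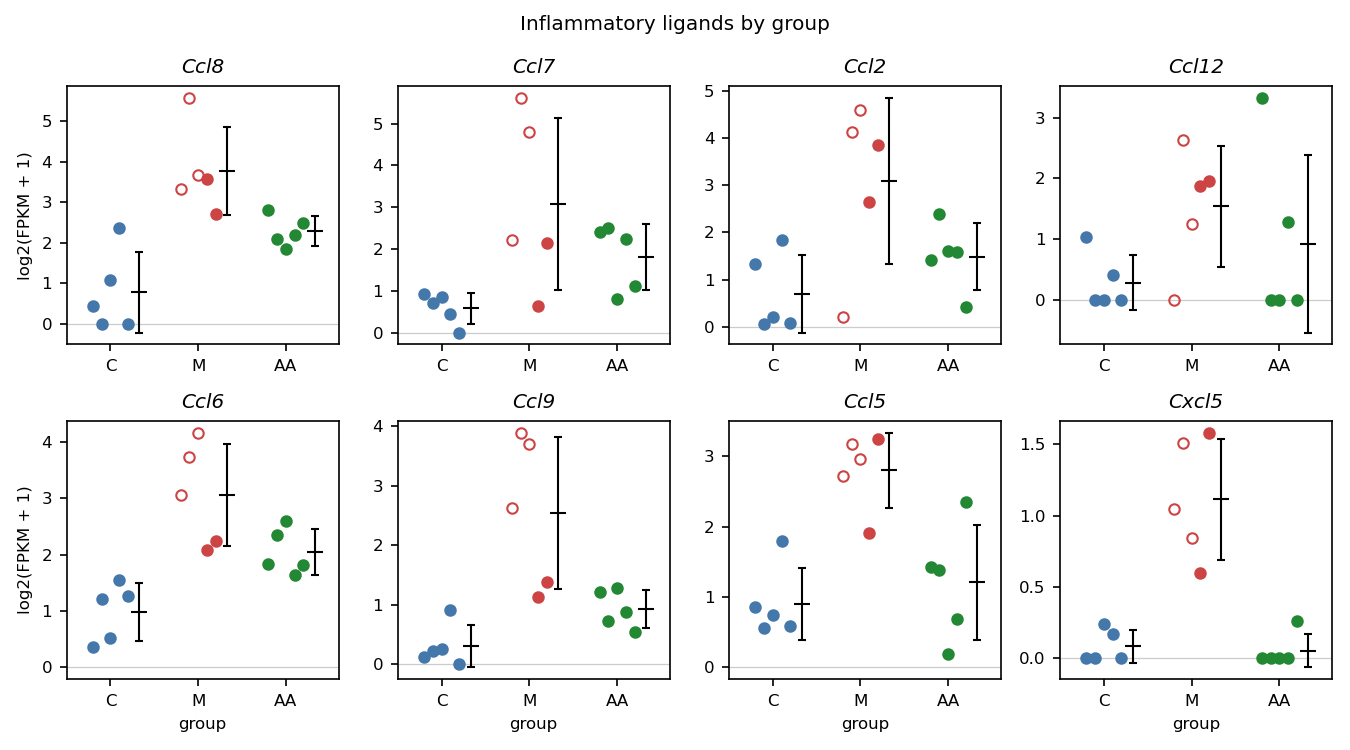
Values of log2(FPKM + 1) for 8 inflammatory ligands in the C (blue), M (red) and AA (green) kidneys, with 1 point per mouse in order of number, open points for M mice 1 to 3, and the mean ± SD of 5 mice beside each group. For Ccl8, Ccl6, Ccl9, Ccl5 and Cxcl5 no M point overlaps the C points, and for Ccl6 and Ccl9 the open M points lie above the filled ones.

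Among the other ligands, Cxcl16, a membrane-bound ligand of Cxcr6, was at 8.07, 6.36, 6.98, 6.31 and 5.11 FPKM in C mice 1 to 5. In M mice 1 to 5 it was at 15.3, 6.59, 8.97, 14.1 and 19.6, with only M mouse 2 inside the C range. The difference of 0.80 ± 0.31 did not pass (adjusted p = 0.230), and on TPM, which scales every library to the same total, it turned to −0.11. Exons of Zmynd15 on the opposite strand cover 18.3% of the Cxcl16 exon bases, and whether reads were counted by strand is not given in the sources used here. The interferon-induced ligands Cxcl9 and Cxcl10 differed by 0.78 ± 0.41 and 0.70 ± 0.43 (adjusted p = 0.359 and 0.440).

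Ccl27a, an epithelial ligand of Ccr10, went the other way. It was at 3.64, 9.65, 3.74, 4.59 and 9.96 FPKM in C mice 1 to 5 and at 0.943, 0, 2.35, 3.01 and 7.91 in M mice 1 to 5. The difference of −1.19 ± 0.52 did not pass (adjusted p = 0.276). Of the 31-base words in its transcripts, 57% also occur in transcripts of other genes, chiefly Gm20878, Gm13306 and Ccl27b, so its reads may have been split among near-identical copies and its level is uncertain. Of the 18 tissue and lymphoid CC ligand genes, 6 were tested and none was called.

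No receptor was called in M vs. C. Cx3cr1, the fractalkine receptor of monocytes and resident macrophages, came closest: it was at 0.525, 0.685, 0.618, 1.84 and 0.226 FPKM in C mice 1 to 5 and at 1.59, 3.59, 3.15, 3.38 and 4.59 in M mice 1 to 5. Only C mouse 4 and M mouse 1 overlapped, and the difference was 1.28 ± 0.31 (adjusted p = 0.0649).

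Ccr1, which binds Ccl5, Ccl3, Ccl6 and Ccl9, was at 0.0989, 0, 0.0956, 0.282 and 0.211 FPKM in C mice 1 to 5. It was at 0.426, 2.97, 2.55, 0.313 and 0.656 in M mice 1 to 5, without overlap, and differed by 0.91 ± 0.32 (adjusted p = 0.186). Ccr2, a receptor of MCP ligands on inflammatory monocytes, overlapped between groups at 0.133 to 1.30 and 0.849 to 3.81 FPKM. It differed by 0.73 ± 0.34 (adjusted p = 0.307). In this comparison of bulk kidneys, more cells of a type and more RNA per cell cannot be told apart.

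Of 9 macrophage markers, C1qb, C1qc and Lyz2 were called higher in M vs. C, and Csf1r, at −1.01, was not called (adjusted p = 0.205). Their summed FPKM was 18.6 to 109 in C, 144 to 420 in M and 103 to 155 in AA kidneys. Lyz2 held most of it in M mice 1 to 3, at 241, 289 and 307 FPKM against 70.7 and 60.5 in M mice 4 and 5. Without Lyz2 the sum was 16.0 to 59.3 in C, 73.8 to 113 in M and 37.5 to 53.6 in AA kidneys, so that M and C still did not overlap. Neutrophil markers summed to 1.63 to 10.9, 2.17 to 39.0 and 2.49 to 14.1 FPKM in the C, M and AA groups, with none of 6 called in M vs. C and Mpo at 0 in every C and M library. Among T cell, B cell, dendritic cell, NK cell, endothelial and fibroblast markers none was called in M vs. C, while 4 of 7 proximal tubule markers and 2 of 5 thick limb and collecting duct markers were called lower. The part of these cell types in the ligand values was not tested.

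Within the C group, mouse 4 stood apart. It held the highest value for 28 of the 57 genes above 0 in that group, among them Ccl8, Ccl5, Ccl9 and Cx3cr1 and the lymphoid genes Cxcl13, Ccr7 and Cxcr5. Ccl21a, the lymphoid ligand of Ccr7, was at 2.51 FPKM there, at 0.173 in C mouse 3 and at 0 in every other library. Other genes share 80.6% of the 31-base words in its transcripts, and its copy on a scaffold was above 0 in C mice 1, 4 and 5 (0.155, 0.220 and 0.0743 FPKM), so its level is uncertain. B cell markers summed to 16.9 FPKM in C mouse 4 and to 0.281 to 2.63 in the other C kidneys, and macrophage markers to 109 against 18.6 to 29.7. The part of these cells in the values of that kidney was not tested.

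The second question was which of these genes differed with asiatic acid. AA vs. M uses the same M libraries as M vs. C, so a chance high value in an M kidney raises one difference and lowers the other. In AA vs. M, 34 of the 67 genes were tested and 6 were called: Ccl8, Ccl5, Ccl9 and Cxcl5 lower, and Ccr9 and Cxcr4 higher in the AA group. Over all 19798 genes tested, 1.07% were called lower and 11.7% higher, and 32.1% had an unadjusted p under 0.05, against 12 of the 34. The share of members called higher was thus below that of all genes, and their median log2 fold change was −0.15 beside 0.17 over all genes tested. In 2 of the 34, Ccr9 and Cxcl5, the groups did not overlap, against 13.2% of all genes. Ccr9 was above 0 in 5 AA and 2 M libraries and Cxcl5 in 5 M and 1 AA libraries. Each thus passed the filter through the group where it was high, so its separation is not independent of the filter. Centring each library on its median, which moved the median over all genes from 0.17 to −0.35, called 8 members lower and 0 higher. Over all genes, centring called 1600 lower and 1213 higher. On TPM no member was called, and with voom on the recovered reads 1 was called in each direction. All genes called higher and lower numbered 415 and 7 on TPM and 1648 and 42 with voom. Without M mouse 2, M mouse 3 or AA mouse 3, 3 members were called, and against M mice 4 and 5 alone 3 were, all lower. Against M mice 4 and 5 alone, 1252 of all genes were called lower and 463 higher.

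Ccl8 was at 6.04, 3.25, 2.61, 3.61 and 4.62 FPKM in AA mice 1 to 5, a range that met the M range only between AA mouse 1 and M mouse 5. It was lower than in the M group by a log2 fold change of −1.49 ± 0.46 (adjusted p = 0.0395), and it stayed called only without M mouse 5 or AA mouse 1 among the 10 fits that leave out a library. With M mice 4 and 5 alone as the reference the difference was −0.86 (adjusted p = 0.170). Ccl2 was at 1.68, 4.29, 2.05, 2.01 and 0.327 FPKM in AA mice 1 to 5, below every M kidney but mouse 1, and differed by −1.61 ± 0.69 (adjusted p = 0.124). Without M mouse 1 it was called. Ccl7 and Ccl12 differed by −1.27 ± 0.79 and −0.62 ± 0.64 (adjusted p = 0.290 and 0.549), and Ccl12 reached its highest value of all libraries, 9.03 FPKM, in AA mouse 1.

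Ccl5 was at 1.68, 1.62, 0.139, 0.607 and 4.08 FPKM in AA mice 1 to 5, with only AA mouse 5 above the lowest M kidney. It fell by a log2 fold change of −1.59 ± 0.41 (adjusted p = 0.0179) and was called with each of the 10 libraries left out in turn. Against M mice 4 and 5 alone it was −1.37 and not called (adjusted p = 0.153), nor was it on TPM, with array weights or with voom. Ccl9 was at 1.33, 0.655, 1.44, 0.830 and 0.449 FPKM in AA mice 1 to 5, under M mice 1 to 3 and M mouse 5 but overlapping M mouse 4. Its fold change was −1.61 ± 0.51 (adjusted p = 0.0423), which held only without M mouse 4 or 5 when a library was left out. With just those 2 M mice as the reference it was −0.32 (adjusted p = 0.527).

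Ccl6 was at 2.58, 4.08, 5.01, 2.11 and 2.53 FPKM in AA mice 1 to 5 and overlapped M mice 4 and 5. The difference of −1.01 ± 0.42 did not pass (adjusted p = 0.113), and with M mice 4 and 5 as the only M libraries it was −0.11. Cxcl5 was at 0.200 FPKM in AA mouse 5, on 6 reads, and at 0 in AA mice 1 to 4. It fell by −1.06 ± 0.22 on the log2 scale (adjusted p = 0.00735), a value that depends on the pseudocount because most AA libraries are at 0. It was not called without M mouse 2 or 5, and against M mice 4 and 5 alone it was −1.04 (adjusted p = 0.0264). Ccl3 and Cxcl2, each at 0 in 2 AA kidneys, differed by −0.45 ± 0.56 and −0.35 ± 0.34, and Cxcl16, at 8.77, 12.1, 10.7, 13.8 and 10.4 FPKM in AA mice 1 to 5, by −0.12 ± 0.33. Ccl4 was listed at 0 in every AA library and was above 0 in 4 of 5 M libraries, and it did not meet the filter.

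Ccr9, the receptor of Ccl25 on thymocytes and gut-homing T cells, was at 1.06, 0.0436, 0.151, 0.567 and 0.390 FPKM in C mice 1 to 5. It was at 0 in M mice 1 to 3, at 0.748 and 0.618 in M mice 4 and 5, and at 2.28, 2.73, 2.09, 1.68 and 1.30 in AA mice 1 to 5. Every AA kidney exceeded every M and C kidney, and the AA vs. M fold change was 1.27 ± 0.28 (adjusted p = 0.00889), called with each library left out in turn. Against M mice 4 and 5 alone it was 0.82 (adjusted p = 0.118). Ccr9 was also not called on TPM, after median centring, with quantile normalization or with array weights. Exons of AC165425.1 on the opposite strand cover 18.8% of the Ccr9 exon bases, and the counting by strand is not given in the sources used here. Its ligand Ccl25 was at 0.302 to 1.14 FPKM in C, 0 to 0.566 in M and 0 to 0.287 in AA kidneys, and differed by −0.11 ± 0.14 in AA vs. M.

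Cxcr4, the Cxcl12 receptor that many white blood cells carry, was at 2.17, 0.413, 0.691, 2.71 and 0.711 FPKM in C mice 1 to 5 and at 1.14, 0.212, 0.978, 1.26 and 5.07 in M mice 1 to 5. In AA mice 1 to 5 it was at 7.35, 4.97, 5.86, 4.43 and 3.64, above every M kidney but mouse 5. The fold change was 1.39 ± 0.39 (adjusted p = 0.0270), or 0.72 with M mice 4 and 5 as the only M libraries (adjusted p = 0.286). Cxcr4 was not called without M mouse 1, 2 or 3 or AA mouse 1 or 3. Its call was also lost without a filter, on TPM with or without mitochondrial genes, after median centring, with the replicate block and with voom. Cxcr5, the receptor of Cxcl13 on follicular B and T cells, was at 0.140, 0, 0.00900, 0.842 and 0.233 FPKM in C mice 1 to 5. It was at 0 in M mice 1 to 3, at 0.205 and 0.490 in M mice 4 and 5, and at 0.771, 1.30, 0.720, 0.598 and 0.280 in AA mice 1 to 5. Its difference of 0.60 ± 0.20 reached an adjusted p of 0.0481 but not the fold threshold.

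Cxcl13, a B cell attractant, was at 0, 0.736, 0.393, 2.49 and 0.260 FPKM in C mice 1 to 5. It was at 0 in M mice 1 to 3 and at 0.237 and 0.613 in M mice 4 and 5, against 1.02, 1.93, 0, 0.760 and 1.19 in AA mice 1 to 5, a difference of 0.70 ± 0.27 (adjusted p = 0.0893). Cx3cl1 was at 31.9, 29.7, 13.0, 33.4 and 36.9 FPKM in C mice 1 to 5 and at 23.6, 5.65, 27.6, 77.8 and 21.6 in M mice 1 to 5. In AA mice 1 to 5 it was at 69.1, 45.6, 78.6, 50.3 and 87.5, above the M kidneys other than mouse 4. The AA vs. M difference of 1.43 ± 0.52 did not pass (adjusted p = 0.0731), while its receptor Cx3cr1, at 0.799, 2.93, 2.13, 1.82 and 1.39 FPKM in AA mice 1 to 5, differed by −0.60 ± 0.32 (adjusted p = 0.209). Ccr1, at 0.165 to 0.881 FPKM in the AA group, differed by −0.47 ± 0.35.

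**Figure D3:**
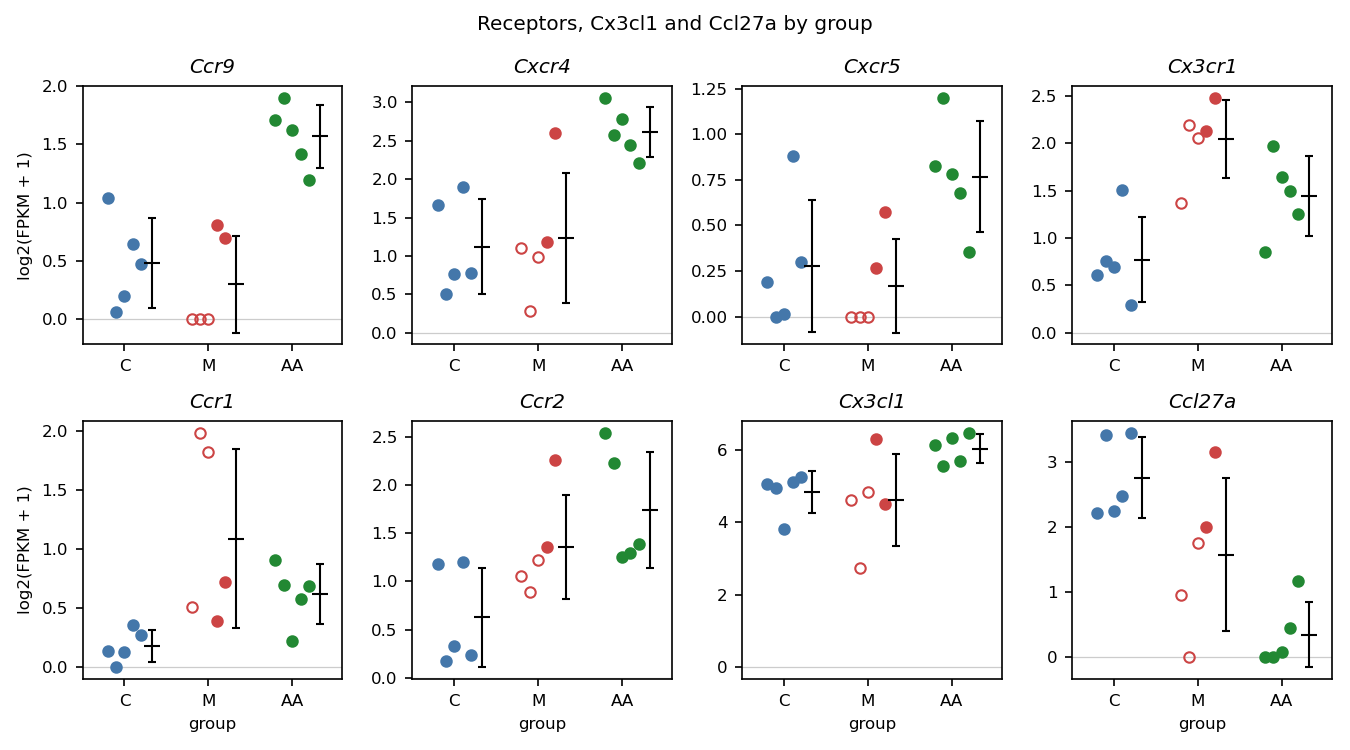
Values of log2(FPKM + 1) for 6 receptors and for the ligands Cx3cl1 and Ccl27a in the C (blue), M (red) and AA (green) kidneys, with 1 point per mouse in order of number, open points for M mice 1 to 3, and the mean ± SD of 5 mice beside each group. Ccr9 is higher in every AA kidney than in any other, and its open M points and those of Cxcr5 lie at 0.

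Of 7 T cell markers 6 were tested in AA vs. M, and Cd3e and Cd3g were called higher. Trac, Cd4 and Cd8a, at 0.09, −0.40 and −0.52, were not called, and the median of the list was 0.14, beside 0.17 over all genes. The T cell markers summed to 0.747 to 9.59 FPKM in C, 1.74 to 14.4 in M and 10.3 to 19.8 in AA kidneys, but without Cd3g to 0.717 to 6.32, 1.74 to 10.1 and 3.35 to 9.67. NK cell markers summed to 0 to 1.40, 0 to 5.30 and 1.51 to 4.58 FPKM, with Ncr1 called higher, the only one of 4 that was tested, and Prf1 at 0 in every AA library. B cell markers summed to 0 to 1.64 FPKM in M and 0 to 0.490 in AA kidneys, where Cd79b was at 0 in every library. Ms4a1, the only one of the 4 that was tested, was not called at 0.21 ± 0.10 (adjusted p = 0.139), with means of 0.00661 FPKM in M and 0.174 in AA kidneys. C1qb was the only macrophage marker called in AA vs. M, and it was lower. Col1a1 alone of 5 fibroblast markers was called, higher in the AA group, and Atp6v1b1 alone of the tubule markers, also higher, while no dendritic cell, neutrophil or endothelial marker was called. Over all genes tested in this comparison, 11.7% were called higher and 1.07% lower. The part of these cells was not tested.

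**Figure D4:**
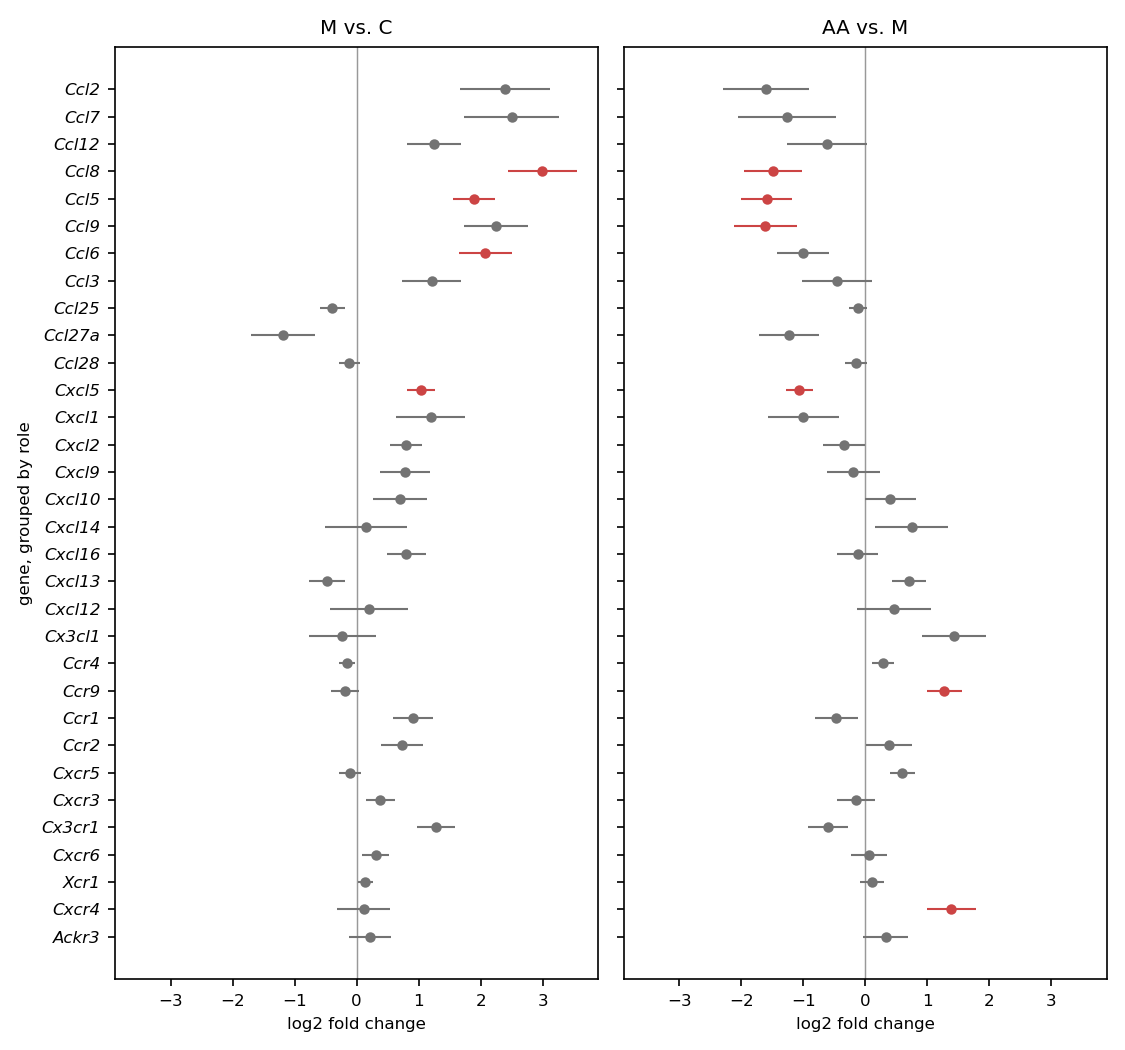
Log2 fold changes (points) with their standard errors (bars) on log2(FPKM + 1) for 32 of the 33 genes tested in both M vs. C (left) and AA vs. M (right), grouped by role, with called genes in red. Because both panels use the same M libraries, opposite signs in the panels are not independent; Ccl8 stands at 3.00 and −1.49, and Ccr9 at −0.19 and 1.27.

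AA vs. C set kidneys given both adenine and asiatic acid against those on the control diet. Here 36 of the 67 genes were tested, 8 were called higher and 1 lower, and 10.2% and 9.61% of all 21898 genes tested were. The balance of directions depended on the scaling, with 0 higher and 2 lower on TPM and 2 higher and 3 lower with voom. That of all genes moved as well, with 862 higher and 5923 lower on TPM and 1603 higher and 6989 lower with voom. Of the 9 genes only Ccl8 and Ccl6 were also called in M vs. C. An unadjusted p under 0.05 was found for 16 of the 36 and for 46.8% of all genes, and 11 of the 36 had groups without overlap, against 24.0% of all genes. The members' median log2 fold change was 0.50, beside 0.09 over all genes. Ccl8, Ccl7 and Ccl6 were called higher in the AA group by 1.51 ± 0.41, 1.23 ± 0.35 and 1.07 ± 0.28 (adjusted p = 0.0146, 0.0182 and 0.0130). Ccl6 was lost without C mouse 1 or 3 or AA mouse 2 or 3. Ccl7 was at 4.31, 4.71, 0.749, 3.70 and 1.16 FPKM in AA mice 1 to 5. Ccl5 differed from the C group by 0.30 ± 0.38 (adjusted p = 0.555), with an SD of 0.839 FPKM around a mean of 0.982 in C kidneys and of 1.52 around 1.62 in AA kidneys.

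Also higher in AA vs. C were Cxcr4 (1.5 ± 0.30, adjusted p = 0.00324), Ccr9 (1.09 ± 0.23, adjusted p = 0.00429) and Cx3cl1 (1.20 ± 0.31, adjusted p = 0.0106). Cxcl10, the interferon-induced ligand whose promoter holds both motifs, was at 2.32, 0.718, 0.434, 2.34 and 0.969 FPKM in C mice 1 to 5 and at 5.38, 3.74, 3.11, 2.65 and 4.49 in AA mice 1 to 5. The groups did not overlap, and the fold change was 1.11 ± 0.28 (adjusted p = 0.0105). Exons of Art3 on the opposite strand cover 5.9% of its exon bases. Ccr2 was at 4.83, 3.69, 1.38, 1.45 and 1.62 FPKM in AA mice 1 to 5, all above the highest control, a fold change of 1.11 ± 0.33 (adjusted p = 0.0201). Ccr2 was lost without C mouse 2 or 5 or AA mouse 1 or 2, Ccr9 without C mouse 2, and Cxcl10 and Cx3cl1 without C mouse 3. On TPM all 8 genes called higher were lost, and with voom all of them but Ccr2 and Ccr9. Both Ccr2 and Ccr9 were also lost after median centring, with quantile normalization and with array weights. Median centring also lost Ccl6 and Cxcl10, array weights Ccl6, and the fit of all 15 libraries Ccl7 and Cx3cl1.

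Ccl27a was the member called lower. It was at 0, 0, 0.0561, 0.368 and 1.25 FPKM in AA mice 1 to 5, under every C kidney, and fell by −2.42 ± 0.33 on the log2 scale (adjusted p = 0.000473). It was called with each library left out and in all 11 other fits of this comparison. Against the M group the difference was −1.23 ± 0.49 (adjusted p = 0.0982), and without M mouse 2, which was at 0, it was called there too. The near-identical copies named above limit all its values.

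Cell type markers also differed in AA vs. C. All 5 fibroblast markers, 4 of 9 macrophage markers (C1qa, C1qb, C1qc and Lyz2) and 2 of 7 T cell markers (Cd3e and Cd3g) were called higher. So were Ncr1, the only 1 of 4 NK cell markers tested, and Elane, 1 of 4 neutrophil markers tested. The T cell markers Cd3d, Cd4, Cd8a, Cd28 and Trac, at −0.23, −0.01, 0.09, 0.11 and 0.70, were not called. The median of the T cell list was 0.11, beside 0.09 over all genes. Called lower were 5 of 7 proximal tubule markers, 3 of 5 thick limb and collecting duct markers, Csf1r, Cd79b, S100a9 and Tie1, and no dendritic cell marker was called. Over all genes tested in this comparison, 10.2% were called higher and 9.61% lower. The part of these cells in the values of the chemokine and receptor genes was not tested.

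Other genes of the pathway were counted from 3 lists. Among 17 inducers of chemokine genes (cytokines, NF-kB subunits and interferon factors), none of the 15 tested was called in M vs. C. In AA vs. M 15 were tested as well, and Il1b and Irf7 were lower by −1.30 ± 0.40 and −1.34 ± 0.37 (adjusted p = 0.0397 and 0.0226). Il6 and Ifng, encoding the cytokines interleukin 6 and interferon gamma, were higher by 1.13 ± 0.31 and 1.27 ± 0.41 (adjusted p = 0.0226 and 0.0455). Of all genes tested in AA vs. M, 11.7% were called higher and 1.07% lower. Il6 and Ifng were at 0 in M mice 1 to 3, which had the fewest genes above 0. A 0 there says less than a 0 in the C group. In AA vs. M both genes passed the filter through the AA libraries, which were all above 0. In M mice 4 and 5 Il6 was at 0.253 and 0.488 FPKM and Ifng at 0.632 and 1.46. In AA mice 1 to 5 Il6 was at 2.63, 3.33, 0.521, 1.04 and 0.921 FPKM. Ifng was at 1.70, 7.28, 1.08, 1.88 and 1.44 FPKM in the same kidneys. In AA vs. C, Il6 and Ifng were among the genes called higher. Tnf did not meet the filter of any comparison.

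Among 28 genes of signalling below the receptors, 27 were tested in AA vs. C, and Plcb3, Pxn and Jak3 were called lower. Of 7 relatives of the chemokine system outside the naming rule, none was called in M vs. C or AA vs. M. In AA vs. C Rarres2 (chemerin) was called higher and Mif lower. Of all genes tested in AA vs. C, 10.2% were called higher and 9.61% lower.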

How the data were processed

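The kidneys of 15 mice were sequenced after poly-A selection in paired reads of 150 bases. Per the labels and methods, the authors trimmed reads with fastp, aligned them with HISAT2 2.0.5 to mm10, counted them with featureCounts 1.5.0-p3 and deposited FPKM values, which were used as deposited. Their counts and DESeq2 results were not used here. Symbols, positions and exon lengths came from GENCODE M21, which lacked 37 gene identifiers. Reads were recovered as whole multiples of each library's smallest step (97.0 to 98.8% of low values whole within 0.01), with a factor of 2 unsettled, and cover counting error only. The deposited FPKM are not per library total: their denominator was 1.01 to 1.10 times a median-of-ratios size factor of the recovered reads scaled to the geometric mean of the library sums.

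Genes with 5 or more of the 10 compared libraries above 0 were fitted with limma 3.58.1 (trend) in R 4.3.3 on log2(FPKM + 1) without a block, and p-values were adjusted over all genes tested. The fit was checked on simulated data. Replicates are separate mice. Members were named where called or with an unadjusted p under 0.05 in M vs. C or AA vs. M, or among the 8 highest in mean FPKM. The members and lists were chosen with earlier results of these data known, and Cxcl1, Cxcl9, Cxcl10, Ccr2, Ccl25, Ccl4 and Ccl21a were added after their values were seen. Results of some member and list genes are not reported here. Alternatives were another pseudocount (0.1), filters, TPM with and without mitochondrial genes, median centring, quantile normalization, all 15 libraries in 1 fit, array weights, a replicate block, voom on recovered reads and each library left out. Fits with M mice 4 and 5 only or 1 to 3 only were added after the data were seen. Shared sequence was measured in words of 31 bases. Python 3.11.15, numpy 2.4.6, pandas 2.3.3 and matplotlib 3.10.9 were used.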

Additional observations from a re-analysis of the deposited data

Results flagged for a closer look

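In 6 of the 66 groups of 5 kidneys examined for the named genes, 1 kidney's gap to its nearest neighbour took up more than 0.71 of the group's range on log2(FPKM + 1) (Dixon's ratio, which chance passes in about 1 in 20 groups). C mouse 4 was high for Ccl5 (ratio 0.754, 2.46 FPKM) and for Ccl9 (ratio 0.713, 0.873 FPKM), in the kidney that also held the highest B cell and macrophage marker sums of the C group. C mouse 3 was low for Cx3cl1 (ratio 0.787, 13.0 FPKM) and Cxcl12 (ratio 0.736, 11.6 FPKM). AA mouse 5 was high for Cxcl12 (ratio 0.846, 66.4 FPKM) and for Cxcl5 (ratio 1.0, 0.200 FPKM), which was at 0 in the other AA kidneys.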

How the results depend on the processing

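In M vs. C, 4 members were called; the count was 0 without a filter on low values, 8 after centring on library medians, 7 with all 15 libraries in 1 fit and 2 with array weights, 0 with M mice 4 and 5 only, 10 with M mice 1 to 3 only, and 0 to 6 with a library left out. In AA vs. M, where 6 were called, it was 0 on TPM, 2 with voom on recovered reads, 3 with M mice 4 and 5 only and 3 to 6 with a library left out. In AA vs. C, where 9 were called, it was 2 on TPM (0 higher, 2 lower), 5 after centring and 5 with voom (2 higher, 3 lower), and 6 to 9 with a library left out. The cause was not tested.

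The members' median log2 fold change kept its sign in these alternatives, other than 0.00 in AA vs. M with M mice 1 to 3 only. In M vs. C it moved from 0.58 to 0.90 with a pseudocount of 0.1, 0.15 without a filter, 0.80 at a mean FPKM of at least 1, 0.30 on TPM, 0.96 on TPM without mitochondrial genes and 0.94 after centring. In AA vs. M it moved from −0.15 to −0.46, −0.47, −0.59 and −0.67 with the pseudocount, the mean filter, TPM without mitochondrial genes and centring, and to −0.38 with quantile normalization and −0.47 with voom. In AA vs. C it moved from 0.50 to 1.02 (pseudocount), 0.22 (no filter), 0.90 (mean filter), 0.17 (TPM), 0.97 (TPM without mitochondrial genes), 0.34 (centring) and 0.65 (voom). The median over all genes in M vs. C ranged from −1.63 with voom to 0.24 after centring, and the number of all genes called from 1 without C mouse 5 to 3094 with M mice 1 to 3 only, against 291. In AA vs. M all genes called numbered 422 on TPM, 1690 with voom and 1715 with M mice 4 and 5 only, against 2533. In AA vs. C they numbered 6785 on TPM, 4407 after centring and 8592 with voom, against 4346.

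Of 803 refits of the 36 named differences, 1 turned its direction (Cxcl16, M vs. C, −0.11 on TPM), 132 lost a call and 38 gained one. Mice of the same number did not deviate together (correlations −0.23 to 0.17), so the replicate block has no basis in the design; with the replicate block 1 member was called in M vs. C, 5 in AA vs. M and 9 in AA vs. C. Values near 0 are uncertain, and the 3-read limit was higher in M mice 1 to 3 and the AA group than in the C group. M mice 1 and 3 had 2496663 and 2770068 reads outside the mitochondrial genes and 11551 and 12222 genes above 0. AA mouse 2 had 2225755 such reads and 18972 genes above 0. The cause of the low gene numbers in M mice 1 to 3 was not tested.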
